A study of Drosophila melanogaster with 12 samples.

Results

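The intracellular core of the Toll and Imd immune pathways was described in heads of flies expressing mouse TET2. The genes were Rel, Dif, dl, cact, Myd88, tub, pll, imd, key and pirk. They were chosen by their FlyBase symbols and not by their levels, though earlier results of these data were known. All 10 were present among the 17730 genes of the counts table, and 9 of them had counts and were among the 12433 genes tested. In flies, infection is sensed outside the cell, and the signal reaches the nucleus through Rel-family (NF-kB) transcription factors that switch on antimicrobial peptide genes. In the Toll pathway, the receptor Toll recruits the adaptors Myd88 and Tube (tub), which engage the kinase Pelle (pll), and the inhibitor Cactus (cact) is then destroyed so that Dif and Dorsal (dl) enter the nucleus. In the Imd pathway, peptidoglycan receptors act through the adaptor imd and the IKK complex, of which Kenny (key) is the regulatory subunit, on the factor Relish (Rel), and pirk is an inhibitor at the receptor. Much of this control acts on proteins by binding, cleavage, phosphorylation and degradation, which a level of RNA does not show.

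Total RNA was taken from pooled heads of 1-day-old male and female adults in equal ratio, with 3 biological replicates in each of 4 groups. The tested flies carried the driver Tet-Gal4 (dTet-Gal4) together with a UAS transgene for Flag-tagged mouse TET2, either unchanged (mTET2-Wt), with an arginine-to-glycine change near the N-terminus (mTET2-R43G), or with an arginine-to-cysteine change in the catalytic domain (mTET2-R1261C). The W1118 control carried Tet-Gal4 and no TET2 transgene. Gal4 is a yeast activator that turns on a gene placed behind UAS sites, here in the cells where the fly gene Tet is active. The transgenes were placed at a shared site on chromosome 2, and their own levels were not analysed here.

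The libraries held between 15894383 and 19434046 counted read pairs. Ribosomal RNA genes took 2.19% to 7.31% of these counts. The summed level of 8 photoreceptor markers was 33086 to 41502 CPM (counts scaled to the size of each library, with TMM) in the mTET2 libraries and 30309 to 38246 CPM in W1118 control, and that of 7 neuronal markers was 3156 to 4536 CPM and 3409 to 4161 CPM. Of these 15 markers, only Syx1A was at 0 in all libraries. A 0 in these counts need not mean absent RNA, as described below for Rel. The reason was not checked for the markers given at 0. Library mTET2-Wt replicate 3 stood apart in 32 midgut enzyme genes, which summed to 2616 CPM there, against 99.4 to 365 CPM in the other mTET2 libraries and 43.8 to 216 CPM in W1118 control. The levels of the 9 signalling genes in that library were within the spread of the other mTET2 libraries, and edgeR called no fold change of theirs with or without it.

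Rel, the factor of the Imd pathway, could not be measured in these counts. It was listed at 0 in all 12 libraries. Its gene body (FBgn0014018, chr3R:9044183-9047977, minus strand, dm6) is 3795 bases long and lies wholly within the gene Nmdmc (FBgn0010222, chr3R:9042508-9050555), a metabolic enzyme gene on the same strand. The exons of the 2 genes share 0 bases, because Rel sits in an intron of Nmdmc that is 4844 bases long. The authors counted read pairs over whole gene bodies and left out pairs that overlap more than 1 gene, so that every pair within Rel is assigned to neither gene. The same held across the table. All 1686 genes that lie wholly within another gene on the same strand had 0 counts in every library (100%), whereas 1203 of the other 16044 genes did (7.50%). A count of 0 for Rel is thus no measure of its RNA. Nmdmc had 714 to 1394 counts in mTET2 libraries and 631 to 1781 in W1118 control, but these come from the 4253 bases outside Rel and are no stand-in for it. Among the other pathway genes listed, Fadd of the Imd pathway and the Toll-family receptor gene Tehao were hidden in the same way.

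**Figure D1:**
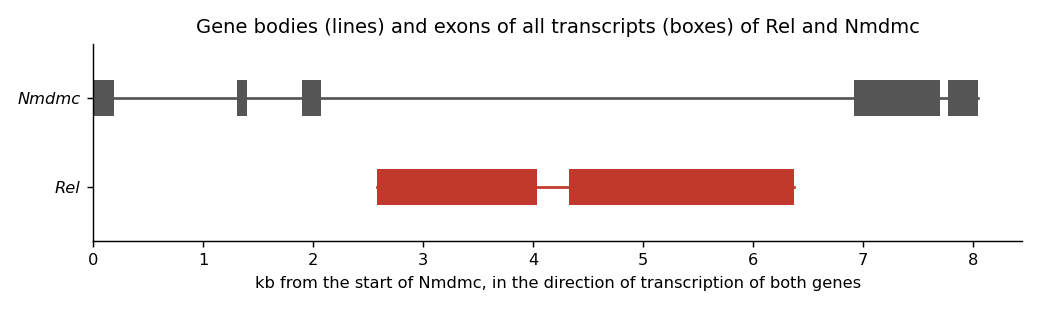
Map of Nmdmc (upper line) and Rel (lower line), with position in kb from the start of Nmdmc on the horizontal axis, gene bodies as lines and exons of all annotated transcripts as boxes. Rel occupies 2.58 to 6.37 kb, inside an intron of Nmdmc, and no exon box of Rel lies under an exon box of Nmdmc.

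The other 9 genes were detected in every library, with counts between 59 (pirk) and 4752 (cact). Levels between genes were compared as CPM per kb of gene body, the stretch in which read pairs were counted, introns included. The inhibitor cact was highest with 17.8 ± 1.02 CPM per kb (mean ± SD over all 12 libraries), followed by key with 16.96 ± 1.14 and tub with 16.4 ± 1.55 CPM per kb. The ranges of these neighbours overlapped over libraries. A gap then separated tub from dl (7.94 ± 0.50 CPM per kb), Dif (7.77 ± 0.47) and Myd88 (6.58 ± 0.35), whose ranges again overlapped. A further gap separated Myd88 from pll, which had 5.03 ± 0.41 CPM per kb. Next by mean were pirk (4.74 ± 1.77), whose libraries ran from 1.72 to 7.54 CPM per kb and reached into the range of Myd88, and imd (3.47 ± 0.26), which overlapped pirk. By mean, the adaptor at the top of the Imd branch was the lowest of the 9 per kb of gene body, and the Toll inhibitor the highest.

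This order depended on the length used. Exons make up 25.2% of the gene body of cact, 28.6% of Dif and 39.9% of imd, but 96.8% of tub and 94.1% of pll. Per kb of exons, cact stayed highest with 70.4 CPM and Dif moved to the second place with 27.2 CPM, ahead of key (22.7), tub (16.9) and dl (16.7 CPM per kb of exons). Myd88 had 10.8, imd 8.70, pll 5.34 and pirk 5.21 CPM per kb of exons. Since the pairs that fell in introns are not listed apart, neither scale gives the level of mature RNA alone.

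**Figure D2:**
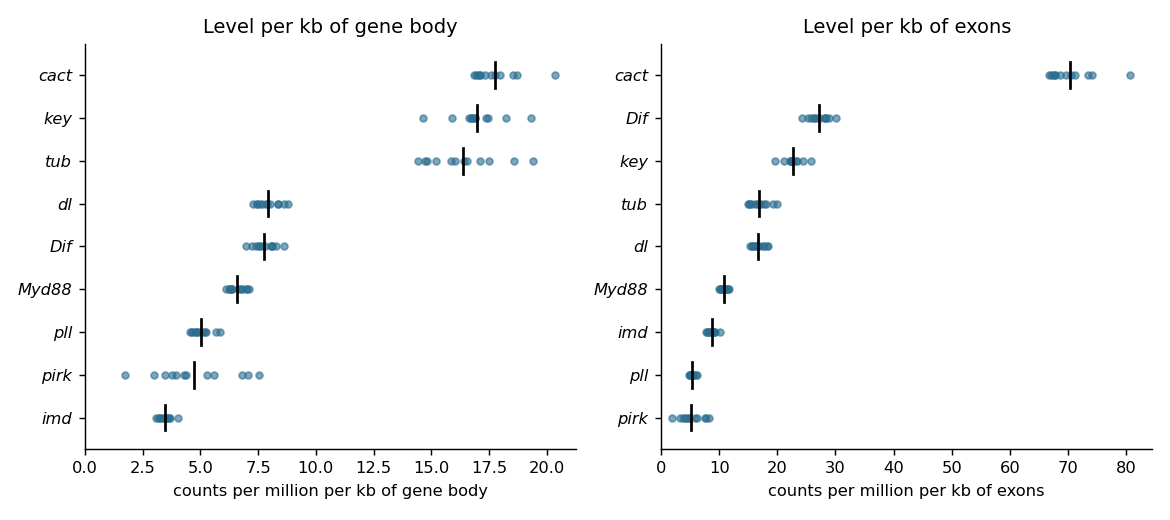
Level of each of the 9 counted genes in CPM per kb of gene body (left) and per kb of exons (right), with each of the 12 libraries as a point and the mean as a black line. cact leads on both scales, while Dif moves from 7.77 CPM per kb of gene body to 27.2 CPM per kb of exons.

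Variation between libraries set pirk apart from the rest. The biological coefficient of variation that edgeR estimated within groups was 32.7% for pirk, above 78.7% of all genes tested, and 6.85% to 9.74% for the other 8, against a median of 13.5% over all genes. Across the 12 libraries the highest level of pirk was 4.39 times its lowest, whereas for the other 8 genes this ratio was between 1.16 (Myd88) and 1.34 (tub). Counting error contributes about 7.73% for pirk and 7.43% for pll, which had similar counts and an estimated coefficient of 9.74%. The coefficient of variation observed within groups, pooled over the 4 groups, was 38.0% for pirk and 3.41% to 6.78% for the other 8. That of pll (6.78%) did not exceed its counting error.

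Each mTET2 group was compared with W1118 control to ask whether the RNA of the core itself changed. None of the 9 genes passed the test in any group (edgeR's quasi-likelihood test, adjusted p of at most 0.05, adjusted over all genes tested). Of all 12433 genes, 2.24% were called in mTET2-Wt heads, 4.33% in mTET2-R43G heads and 1.49% in mTET2-R1261C against W1118 control, and 0 of 9 is near this background. The smallest adjusted p of the 9 was 0.102 in mTET2-Wt heads, 0.110 in mTET2-R43G heads and 0.343 in mTET2-R1261C heads, each time for tub. Before adjustment, 3 of the 9 had p under 0.05 in mTET2-Wt heads (tub, dl and cact), 2 in mTET2-R43G heads (tub and pirk) and 2 in mTET2-R1261C heads (tub and Dif), against 14.7%, 23% and 11.8% of all genes. DESeq2 called 0 of the 9 in each of these comparisons as well, with 3, 3 and 2 at an unadjusted p under 0.05. It called 517, 1133 and 387 of all genes. The median log2 fold change of the 9 was 0.04 in mTET2-Wt heads, -0.03 in mTET2-R43G heads and 0.01 in mTET2-R1261C heads, and that of all genes was -0.0033, -0.01 and -0.0051.

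For 8 of the 9 genes the data bound the size of any change tightly. Without pirk, the 95% intervals of the fold against W1118 control ran from 0.727 to 1.22 in mTET2-Wt heads, from 0.745 to 1.198 in mTET2-R43G heads and from 0.774 to 1.24 in mTET2-R1261C heads. The intervals of pirk were far wider and reached a fold of 3.27 in mTET2-R43G heads. Heads hold many cell types, and fewer cells of a type and less RNA per cell cannot be told apart in these bulk samples.

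**Figure D3:**
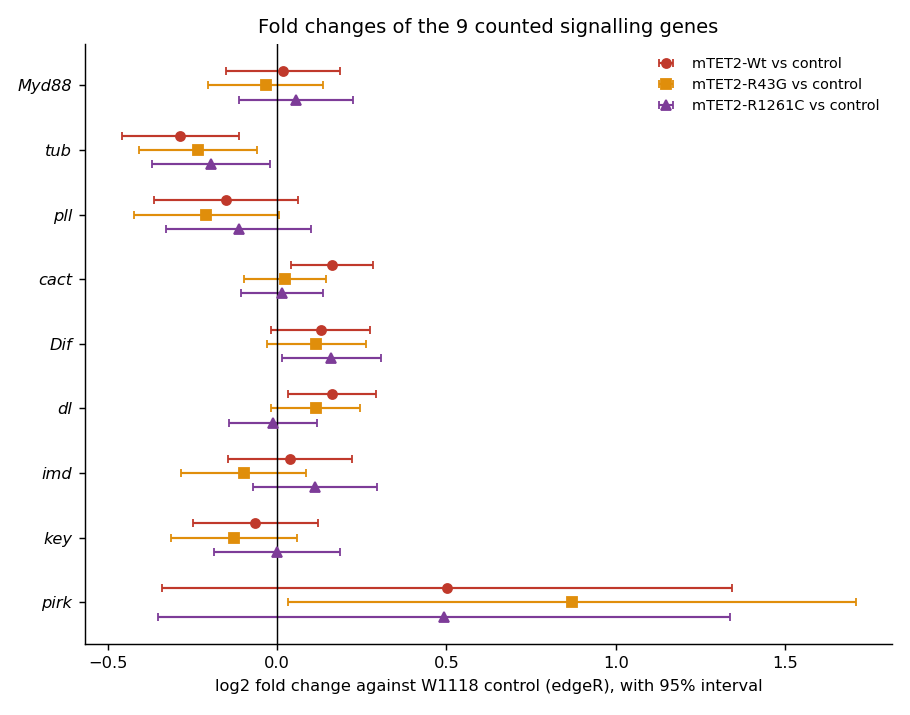
Log2 fold change of each counted gene, for mTET2-Wt, for mTET2-R43G and for mTET2-R1261C, against W1118 control (horizontal axis, edgeR), with 95% intervals as bars. All 3 points of tub lie left of 0, between -0.29 and -0.20, and the 3 points of pirk lie right of 0 with the widest bars.

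Among the adaptors of the Toll receptor, tub was lower in every mTET2 library than in any control library. It had 31.5, 29.9 and 32.8 CPM in mTET2-Wt heads, 33.2, 34.0 and 30.5 CPM in mTET2-R43G heads and 35.4, 34.3 and 30.7 CPM in mTET2-R1261C heads, against 36.3, 38.5 and 40.2 CPM in W1118 control. Of the 9 genes only tub separated all 9 mTET2 libraries from the 3 of W1118 control, as 5.77% of all genes did. The log2 fold change was -0.29 (SE 0.08) in mTET2-Wt heads, -0.23 (SE 0.08) in mTET2-R43G heads and -0.20 (SE 0.08) in mTET2-R1261C heads. These 3 comparisons share the control libraries. With the mean of the 3 mTET2 groups against W1118 control, the log2 fold change of tub was -0.24 (SE 0.06), a fold of 0.848 with a 95% interval from 0.769 to 0.934. Its adjusted p was 0.0647 in edgeR and 0.0474 in DESeq2, so that the call turned on the tool. Over all alternatives run on this contrast the adjusted p of tub ranged from 0.0474 to 0.237, and its log2 fold change from -0.28 to -0.20 with each library left out in turn. The adjusted p was highest without W1118 control replicate 3, the library with the highest level of tub.

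In that contrast of the mean of the mTET2 groups with W1118 control, edgeR called 0 of the 9 genes and 3.96% of all genes, and 2 of the 9 (tub and Dif) had an unadjusted p under 0.05, against 18.8% of all genes. DESeq2 called 1 of the 9, tub, and 805 of all genes, and gave 3 of the 9 an unadjusted p under 0.05.

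Myd88, the adaptor that joins the receptor to Tube, had 36.1 to 41.4 CPM in the mTET2 libraries and 36.7 to 42.0 CPM in W1118 control, with log2 fold changes from -0.03 to 0.06. Its groups overlapped throughout. The kinase gene pll had 9.35 to 10.8 CPM in the mTET2 libraries and 9.88 to 12.0 CPM in W1118 control. Its log2 fold changes were -0.15 (SE 0.10) in mTET2-Wt heads, -0.21 (SE 0.10) in mTET2-R43G heads and -0.11 (SE 0.10) in mTET2-R1261C heads, with adjusted p between 0.228 and 0.753. The whole of pll (chr3R:27251131-27253182) lies within TfIIA-L on the opposite strand, whose 9316 counts exceed the 2176 of pll. Counting used the strand of stranded libraries, and leakage of antisense pairs was not tested.

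The inhibitor cact, the fly IkB, was measured with the highest counts of the core. It had 268, 244 and 246 CPM in mTET2-Wt heads, 234, 232 and 223 CPM in mTET2-R43G heads and 222, 225 and 237 CPM in mTET2-R1261C heads, against 225, 228 and 224 CPM in W1118 control. All 3 mTET2-Wt libraries were above every library of the other 3 groups. Against W1118 control alone, 23.3% of all genes did not overlap in mTET2-Wt heads, and the share against all 3 groups was not computed. The log2 fold change in mTET2-Wt heads was 0.16 (SE 0.06, unadjusted p = 0.0127, adjusted p = 0.178 by edgeR), a fold of 1.12 with a 95% interval from 1.03 to 1.22. In mTET2-R43G and mTET2-R1261C it was 0.02 and 0.01 (SE 0.06 each).

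The NF-kB factor genes of the Toll pathway lie next to each other on chromosome arm 2L. Dif (chr2L:17413248-17433161) acts in the immune response of adults, and dl (chr2L:17436830-17450364), known for patterning the embryo, also serves in immunity. Dif had 153, 165 and 155 CPM in mTET2-Wt heads, 160, 147 and 161 CPM in mTET2-R43G heads and 172, 150 and 161 CPM in mTET2-R1261C heads, against 150, 144 and 139 CPM in W1118 control. Its mTET2-Wt and mTET2-R1261C libraries lay above those of W1118 control, and 1 library of mTET2-R43G overlapped them. The log2 fold changes of Dif were 0.13, 0.12 and 0.16 (SE 0.07 each, adjusted p from 0.327 to 0.412 by edgeR) for mTET2-Wt, for mTET2-R43G and for mTET2-R1261C.

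dl had 117, 119 and 109 CPM in mTET2-Wt heads, 106, 113 and 113 CPM in mTET2-R43G heads and 101, 104 and 101 CPM in mTET2-R1261C heads, against 98.4, 107 and 102 CPM in W1118 control. Only mTET2-Wt stood above W1118 control without overlap, with a log2 fold change of 0.16 (SE 0.06, adjusted p = 0.218), while mTET2-R1261C gave -0.01 (SE 0.06). Libraries without overlap with W1118 control were found for 4 of the 9 genes in mTET2-Wt heads (Dif, dl and cact higher, tub lower), 2 in mTET2-R43G heads (tub and key lower) and 2 in mTET2-R1261C heads (Dif higher, tub lower). Of all genes, 23.3%, 26.6% and 15.3% did not overlap in these comparisons.

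**Figure D4:**
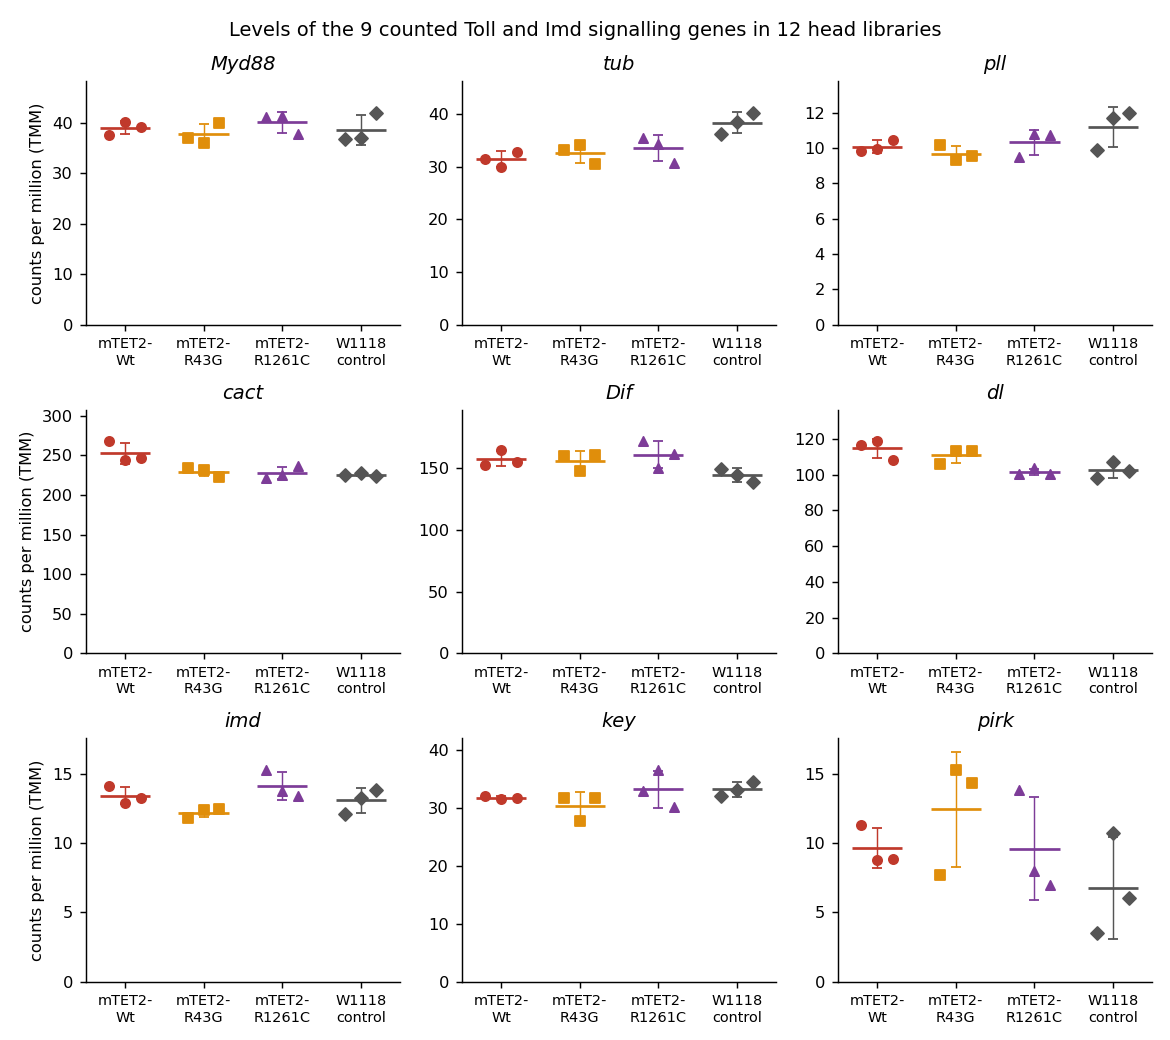
Level of each counted gene in CPM (vertical axes from 0) in each library, with groups from left to right as mTET2-Wt, mTET2-R43G, mTET2-R1261C and W1118 control, horizontal lines at the mean and bars of 1 SD (n = 3). tub sits between 29.9 and 35.4 CPM in the mTET2 libraries and between 36.3 and 40.2 CPM in W1118 control, while pirk spreads widely within each group.

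In the Imd branch, the adaptor imd had 14.1, 12.9 and 13.3 CPM in mTET2-Wt heads, 11.8, 12.4 and 12.4 CPM in mTET2-R43G heads and 15.3, 13.7 and 13.4 CPM in mTET2-R1261C heads, against 12.1, 13.2 and 13.8 CPM in W1118 control. Every mTET2 group overlapped the control. The log2 fold changes of imd were 0.04, -0.10 and 0.11 (SE 0.08 each) for mTET2-Wt, for mTET2-R43G and for mTET2-R1261C. This gene (chr2R:18409796-18413599) lies 52.5 kb from the position of the transgene landing site as given in the study's methods, by far the nearest of the 10, while the next on that arm, pirk, lies 3.30 Mb away. All mTET2 groups carry a transgene at that site, and the 95% interval of imd against W1118 control included a log2 fold change of 0 in each of them. A share of 41.4% of imd lies under Dp1 on the opposite strand, which had 107366 counts in all against 2774 of imd.

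The IKK subunit gene key had 27.8 to 36.6 CPM in the mTET2 libraries and 32.1 to 34.6 CPM in W1118 control. Its 3 mTET2-R43G libraries, with 31.8, 27.8 and 31.8 CPM, were below all 3 of W1118 control, but the log2 fold change of -0.13 (SE 0.09) had an adjusted p of 0.403. In mTET2-Wt and mTET2-R1261C it was -0.06 and -0.00084 (SE 0.08 each).

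The inhibitor pirk, itself known as a target of the Imd pathway, had the largest fold changes and the largest errors. It had 11.3, 8.76 and 8.87 CPM in mTET2-Wt heads, 7.68, 15.3 and 14.3 CPM in mTET2-R43G heads and 13.8, 8.003 and 7.01 CPM in mTET2-R1261C heads, against 3.49, 10.8 and 6.05 CPM in W1118 control. W1118 control replicate 1 was the lowest of the 12 and replicate 2 was above 5 of the 9 mTET2 libraries, so that all groups overlapped. The log2 fold change was 0.50 (SE 0.38) in mTET2-Wt heads, 0.87 (SE 0.38) in mTET2-R43G heads and 0.49 (SE 0.39) in mTET2-R1261C heads, with adjusted p of 0.612, 0.201 and 0.717 by edgeR. With the mean of the mTET2 groups it was 0.62 (SE 0.32, adjusted p = 0.329). Control libraries decided its size. Without W1118 control replicate 1 the log2 fold change of that mean was 0.31, and without W1118 control replicate 2 it was 1.13, with an adjusted p of 0.148.

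Differences between the mTET2 groups were tested to ask whether the substitutions mattered for the core. None of the 9 genes was called in mTET2-R43G or mTET2-R1261C against mTET2-Wt, or in mTET2-R1261C against mTET2-R43G, by edgeR or by DESeq2, where 0.145%, 0.193% and 0.0965% of all genes were called by edgeR. Unadjusted p was under 0.05 for cact in mTET2-R43G against mTET2-Wt (log2 fold change -0.14, SE 0.06), for dl and cact in mTET2-R1261C against mTET2-Wt (-0.17 and -0.15, SE 0.06 each) and for imd in mTET2-R1261C against mTET2-R43G (0.21, SE 0.08). These are 1, 2 and 1 of the 9 genes, against 9.86%, 6.63% and 13% of all genes, and the smallest adjusted p by edgeR was 0.349, for imd. DESeq2 called 74, 81 and 114 of all genes in these comparisons, and also gave 1, 2 and 1 of the 9 an unadjusted p under 0.05. In mTET2-R1261C against mTET2-R43G that gene was dl by DESeq2 (log2 fold change -0.14, unadjusted p = 0.0413, adjusted p = 0.229). There imd had an unadjusted p of 0.110 by DESeq2, which gave no adjusted p for 3 genes, imd among them. A test of any difference among the 4 groups called 0 of the 9 and 2.66% of all genes by edgeR. By the same test 3 of the 9 (tub, dl and cact) and 18.7% of all genes had an unadjusted p under 0.05. DESeq2 called 0 of the 9 and 986 of all genes, with 3 of the 9 under that threshold.

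The other pathway genes were read from lists of 20 Toll and 23 Imd components, of which 17 and 22 were tested. They include the ligand gene spz and the receptor gene Tl on the Toll side, and the receptor gene PGRP-LC and the kinase gene Tak1 on the Imd side. In mTET2-Wt and mTET2-R1261C against W1118 control, 0 of the 17 and 0 of the 22 were called. In mTET2-R43G, Tl was called higher (log2 fold change 0.25, SE 0.06, adjusted p = 0.0328), with 328, 354 and 348 CPM in mTET2-R43G heads and 294, 294 and 282 CPM in W1118 control. PGRP-LB, an amidase that degrades peptidoglycan and dampens Imd signalling, was also higher in mTET2-R43G heads (log2 fold change 0.94, SE 0.20, adjusted p = 0.0287), with 13.6, 22.6 and 12.0 CPM there and 7.87, 8.96 and 8.30 CPM in W1118 control. The third was dnr1, an inhibitor of the caspase Dredd, with a log2 fold change of 0.47 (SE 0.09, adjusted p = 0.0140) in mTET2-R43G heads. Tl and PGRP-LB also lay above W1118 control without overlap in mTET2-Wt and mTET2-R1261C heads, as did dnr1 in mTET2-Wt heads. Of all genes, 23.3% and 15.3% did not overlap in these 2 groups. The log2 fold changes of Tl, PGRP-LB and dnr1 were 0.14, 0.73 and 0.28 in mTET2-Wt heads. In mTET2-R1261C heads they were 0.13, 0.58 and 0.19, and none of these was called. The background of genes called higher was 1.19% in mTET2-Wt heads, 2.29% in mTET2-R43G heads and 0.82% in mTET2-R1261C heads, and of genes called lower 1.05%, 2.03% and 0.668%. No listed component was called lower in these comparisons.

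With the mean of the mTET2 groups against W1118 control, 0 of the 17 Toll components and 2 of the 22 Imd components (PGRP-LB and dnr1) were called higher and 0 lower, against 1.73% and 2.23% of all genes. The median log2 fold change of the Toll components was 0.01 and that of the Imd components 0.04, beside -0.01 for all genes.

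The output genes of the pathways stood in contrast to the core in size. Lists of antimicrobial effectors had 13 tested genes for Imd (Diptericins, Attacins, Cecropins and others) and 16 for Toll (Drs, Bomanins and others). PGRP-SD of the Imd list and Mtk and IM18 of the Toll list were at 0 in all libraries and were not tested. In mTET2-Wt, 2 of the 13 Imd effectors and 9 of the 16 Toll effectors were called higher and 0 lower, in mTET2-R43G heads 1 and 2, and in mTET2-R1261C heads 0 and 0. Of all genes, 1.19%, 2.29% and 0.82% were called higher in these groups. Their median log2 fold changes were 2.80 and 1.59 in mTET2-Wt heads, 3.39 and 0.80 in mTET2-R43G heads, and 2.41 and 0.70 in mTET2-R1261C heads. In mTET2-R1261C, edgeR gave 7 of the 13 and 9 of the 16 an unadjusted p under 0.05, against 11.8% of all genes. The 9 Toll effectors called in mTET2-Wt heads were BomS1, BomS2, BomS3, BomS5, BomBc2, BomBc3, BomT2, BomT3 and Dso1. A cluster of Bomanin genes lies near the transgene landing site, and all mTET2 groups carry a transgene there. An effect of that site on these genes was not tested. Bomanins also make up most of the Toll effector list, from which the Toll score below was taken. DptB, a Diptericin gene, had 250, 130 and 196 CPM in mTET2-Wt heads, 80.1, 214 and 23.1 CPM in mTET2-R43G heads and 15.1, 35.9 and 133 CPM in mTET2-R1261C heads, against 6.15, 1.13 and 8.07 CPM in W1118 control. BomBc3, a Bomanin gene, had 131, 112 and 144 CPM in mTET2-Wt heads, 122, 54.9 and 34.3 CPM in mTET2-R43G heads and 50.8, 66.7 and 54.7 CPM in mTET2-R1261C heads, against 27.9, 14.4 and 22.9 CPM in W1118 control. Every mTET2 library lay above every control library for these 2 genes, as for DptA and BomS5. For the other 25 of the 29 effectors the mTET2 libraries overlapped those of W1118 control. Of all genes, 5.77% did not overlap in that comparison. In mTET2-Wt, 12 of the 13 Imd and 15 of the 16 Toll effectors lay above W1118 control without overlap. The counts were 7 and 5 for mTET2-R43G heads, and 3 and 4 for mTET2-R1261C heads. Of all genes, 23.3% did not overlap in mTET2-Wt heads, 26.6% in mTET2-R43G heads and 15.3% in mTET2-R1261C heads. The 5 of 16 Toll effectors in mTET2-R43G heads are near that background. The 3 of 13 and 4 of 16 in mTET2-R1261C heads are not far above it. In the same libraries, no fold of the 8 steady core genes against W1118 control had an interval that reached beyond 0.727 or 1.24.

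Fat body and haemocytes are the cell types best known for these pathways, and their markers and those of glia were read beside the core. The 11 fat body markers, of which Cyp4g1 was at 0 in all libraries, summed to 37659 to 48677 CPM in mTET2-Wt heads, 23693 to 46898 CPM in mTET2-R43G heads and 33189 to 57177 CPM in mTET2-R1261C heads, against 32808 to 74409 CPM in W1118 control. The 11 haemocyte markers summed to 1370 to 1478 CPM in mTET2-Wt heads, 1234 to 1485 CPM in mTET2-R43G heads and 1296 to 1701 CPM in mTET2-R1261C heads, against 1102 to 1324 CPM in W1118 control. The 6 glial markers, of which alrm was at 0 in all libraries, summed to 1627 to 1708 CPM in mTET2-Wt heads, 1490 to 1665 CPM in mTET2-R43G heads and 1655 to 1969 CPM in mTET2-R1261C heads, against 1805 to 2279 CPM in W1118 control. The fat body sums overlapped between every mTET2 group and W1118 control. Haemocyte sums of mTET2-Wt were above those of W1118 control, and the glial sums of mTET2-Wt and mTET2-R43G were below them. Of the haemocyte markers, Col4a1 (mean 423 CPM) and vkg (387 CPM) weighed most in the sum, and the markers did not move together. Their median log2 fold change against W1118 control was 0.02 in mTET2-Wt heads, -0.61 in mTET2-R43G heads and -0.01 in mTET2-R1261C heads. By edgeR, 1 marker was called higher and 0 lower in mTET2-Wt heads, 1 and 1 in mTET2-R43G heads, and 2 and 0 in mTET2-R1261C heads. In the glial sum Gs2 (mean 943 CPM) weighed most, while repo had 61.8 and moody 59.8 CPM. Of the 5 glial markers tested, 1 was called lower in mTET2-R43G heads and 0 in mTET2-Wt or mTET2-R1261C heads. In the fat body sum, apolpp (mean 19993 CPM) and the yolk protein genes Yp1, Yp2 and Yp3 (7489, 6244 and 6967 CPM) weighed most. The part of these cell types in the levels of the core or of the effectors was not tested.

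Whether the RNA of a core gene followed the output of its pathway from library to library was asked with a score, the mean log2 CPM of the effectors. The Toll score was 6.63 to 6.89 in mTET2-Wt heads, 5.15 to 6.70 in mTET2-R43G heads and 5.37 to 5.84 in mTET2-R1261C heads, against 4.47 to 5.11 in W1118 control. The Imd score was 3.82 to 4.14, 2.19 to 5.41 and 1.12 to 4.44 in these mTET2 groups, against -0.11 to 1.83 in W1118 control. A total of 9 relations were computed, and p-values are two-sided. The relations within groups, and over the mTET2 libraries without their own 2 farthest from the median score, were not planned.

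The level of cact was higher where the Toll score was higher. Pearson's r was 0.73 and Spearman's rho 0.68 over the 12 libraries (permutation p = 0.00465 and 0.0179, adjusted 0.0418 and 0.0807). Over the 9 mTET2 libraries r was 0.76 and rho 0.73 (exact permutation p = 0.0134 and 0.0311, adjusted 0.117 and 0.140). Without the 2 libraries farthest from the median score r was 0.76 (adjusted 0.0331), over the mTET2 libraries without their own 2 farthest it was 0.86 (exact permutation p = 0.00675, adjusted 0.0348), and without mTET2-Wt replicate 3 it was 0.69 with an adjusted p of 0.0832. The mTET2-Wt libraries, highest in cact, were also among the highest in score, and after subtraction of the group means r was 0.30 (exact permutation within groups, p = 0.329). The relation was not shown within groups.

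Of the Imd genes, key was lower where the Imd score was higher, with r of -0.62 and rho of -0.71 over the 12 libraries (permutation p = 0.0291 and 0.0136, adjusted 0.0872 and 0.0807). Over the 9 mTET2 libraries r was -0.72 (exact permutation p = 0.0260, adjusted 0.117). Over the 12 libraries it did not hold without mTET2-R43G replicate 2 and W1118 control replicate 2, the farthest from the median score (r = -0.45, p = 0.199 by permutation), and so rests there on these libraries. Over the mTET2 libraries without their own 2 farthest, mTET2-R1261C replicate 1 and mTET2-R43G replicate 3, r was -0.91 (exact permutation p = 0.00774, adjusted 0.0348) and rho -0.75 (adjusted 0.199). Within groups r was -0.59 (exact permutation p = 0.240). For tub, r with the Toll score was -0.64 over the 12 libraries (permutation p = 0.0269, adjusted 0.0872) but -0.18 over the 9 mTET2 libraries (exact permutation p = 0.630), and the relation did not hold apart from the difference between mTET2 and control libraries.

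The relation of the inhibitor pirk to the Imd effectors did not pass the test. Its r with the Imd score was 0.29 over the 12 libraries (permutation p = 0.371) and -0.11 over the 9 mTET2 libraries (exact permutation p = 0.781), but 0.66 over the mTET2 libraries without their 2 farthest (exact permutation p = 0.113). Library mTET2-R1261C replicate 1 had a pirk level of 13.8 CPM at the lowest Imd score of any mTET2 library, and W1118 control replicate 2 had 10.8 CPM at the lowest score of all 12. The remaining 5 genes had r between -0.31 (pll) and 0.48 (dl) over the 12 libraries, with adjusted p from 0.257 to 0.905.

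**Figure D5:**
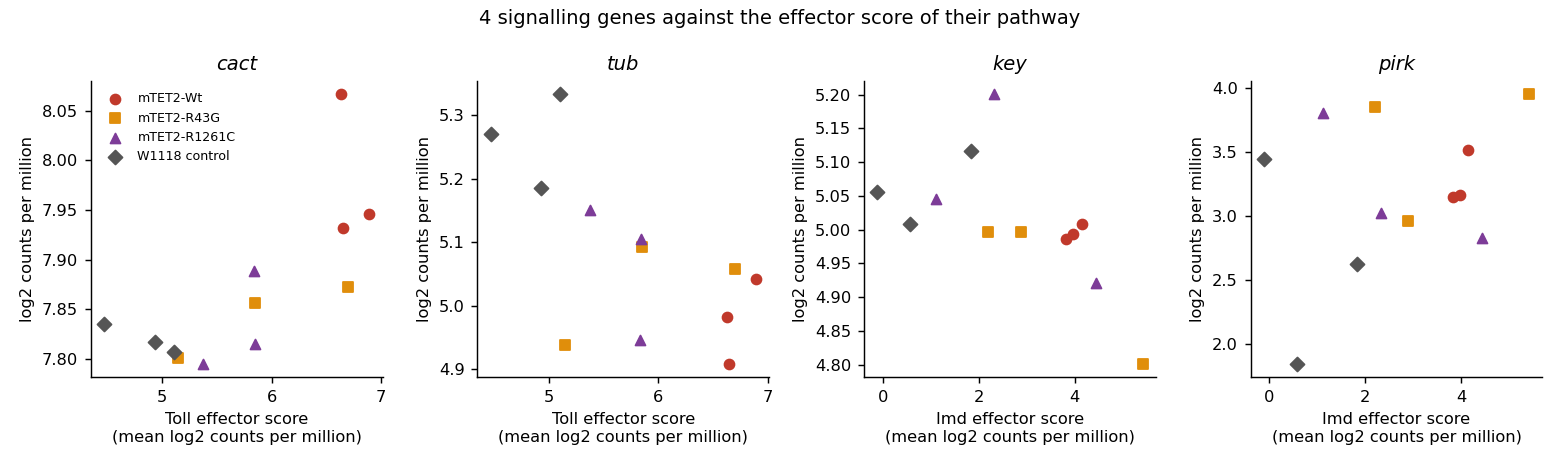
Log2 CPM of cact and tub against the Toll effector score and of key and pirk against the Imd effector score, each point a library and each colour and symbol a group. The 3 mTET2-Wt libraries lie at the upper right for cact, and the points of pirk gave r = 0.29 over 12 libraries.

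The genes whose level over the 12 libraries was most like that of each member were searched among 9502 genes with a mean of at least 1 CPM. For pirk these were PGRP-LF, an inhibitory receptor of the Imd pathway (Pearson's r 0.83), and Cda9 (0.81). For tub they were CG4743 (0.93) and the long non-coding RNA cherub (0.91), for cact CG2003 and CG6142 (0.89 each), for Dif Ir75a (0.85) and Oatp74D (0.84), and for dl slv (0.89) and vanin-like (0.86). Myd88 was most like Nt5b and CG7966 (0.93 each), pll like Cse1 (0.92) and Egfrap (0.90), imd like Dhrs4 (0.93) and CG15083 (0.89), and key like Sply and dnd (0.93 each). These are the highest of many values and are given as a description. Of the 18 genes, only PGRP-LF was on a list of pathway genes.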

How the data were processed

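The deposited file is a table of raw counts that the authors made with featureCounts (version 1.6.0 per the file headers, 2.0.1 per the labels) from paired-end reads of stranded, ribosome-depleted libraries. Reads were aligned with HISAT2 2.1.0 to the FlyBase genome of dm6. Read pairs were counted on the gene's strand over gene bodies, introns included. Multi-mapping pairs and those touching several genes were dropped, which hides nested genes such as Rel. Column 6 of that table holds gene lengths in bases as the authors deposited them.

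Only genes reaching a total of 10 counts across the 12 libraries were fitted, in R 4.3.3 with edgeR 4.0.16 (TMM, quasi-likelihood test, a mean per group, Benjamini-Hochberg adjustment over all genes). DESeq2 1.42.0 was the alternative, beside other scalings, filters, a replicate block and each library left out. Correlations used Python 3.11.15 with 100000 permutations, or all permutations for 9 libraries or fewer. The edgeR fit was tested on simulated counts with known folds, for mTET2-Wt against W1118 control.

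The genes, the lists and the tests were chosen with earlier results of these data known. Genes named outside the 10 are list genes called against control, example genes of the lists and the 2 genes most like each member. Intervals cover the spread between these samples. The Ensembl BDGP6.54 annotation gave exons and names, and its coordinates of the 10 genes were identical. Promoter and protein sequences were not analysed here.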

Additional observations from a re-analysis of the deposited data

How the results depend on the processing

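Leaving out each of the 12 libraries in turn, other scalings, other filters, a robust fit and removal of ribosomal RNA genes left 0 of the 9 genes called by edgeR in each comparison. Of 122 counts of called genes under alternatives, 121 equalled those reported. The exception was the mean of the mTET2 groups against W1118 control, where DESeq2 called 1 (tub) and 805 of all genes. Of 927 fold changes of single genes under alternatives, 33 changed sign, all of them small and not called, and 1 became called. With the replicate block, 0 of the 9 genes were called in each comparison and the adjusted p of tub in the mean of the mTET2 groups was 0.137. Deviations of libraries with the same replicate number had correlations from -0.38 to 0.29, and those with different numbers from -0.31 to 0.38. No pairing by number was seen, though so few libraries cannot exclude one.

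The relation of cact to the Toll effectors passed its threshold over 12 libraries by Pearson's r (adjusted p = 0.0418), though not by Spearman's rho (0.0807). By r it also passed without the 2 libraries farthest from the median score (adjusted p = 0.0331) and in the mTET2 libraries without their own 2 farthest (r = 0.86, adjusted p = 0.0348), but not in all 9 mTET2 libraries (r = 0.76), without mTET2-Wt replicate 3 (0.69) or within groups (0.30), an alternative chosen after seeing the data. That of key passed only in the mTET2 libraries without their 2 farthest (r = -0.91). Without W1118 control, r changed sign for pll (0.36), Dif (-0.22) and pirk (-0.11), and within groups for tub (0.25), pll (0.37), Dif (-0.23), dl (-0.58) and pirk (-0.23). None of these passed the threshold, and the cause was not tested. No setting recovers Rel, whose read pairs were left out before deposit.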
